A study of Ovis aries with 6 samples.

Results

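UCP1, UCP2 and UCP3, the 3 uncoupling protein genes, were taken by symbol from a table of 24390 sheep genes, in which each symbol stood at 1 locus. RNA sequencing counted transcripts in the fat that surrounds the kidney (perirenal adipose tissue) of pure-bred wild-type Merino sheep. The fetal group was 3 fetuses at 132 days post conception (term 150 days) and the lamb group 3 animals born at term to other ewes and reared with them until weaning. The labels give the lamb age as 80 days after birth, as 89 days and as 12 weeks. Per the labels no treatment was given, although the titles of all 3 lamb samples carry the letters VEH, which the sources used here do not explain. If they mark a vehicle, it and stage cannot be told apart. Every animal gave 1 library (n = 3 at each stage). The question addressed is how far uncoupling protein transcripts differ between fetal and postnatal perirenal fat.

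Uncoupling proteins belong to the carriers of the mitochondrial inner membrane. UCP1, the mark of brown adipocytes, lets protons return to the matrix without ATP synthesis, so that respiration is released as heat; fatty acids activate it and purine nucleotides hold it shut. In sheep the perirenal depot is the main store of brown fat at birth and turns white over the following weeks. UCP2 is expressed in many tissues, with high levels in immune cells, and exports small dicarboxylates from mitochondria. UCP3 is best known from skeletal muscle and, in rodents, from brown fat.

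The libraries held between 15907128 and 19150428 counts. Values per gene are CPM, counts relative to library size scaled with TMM factors (a correction for differences in library composition), as mean ± SD. Differences are log2, lamb minus fetal, ± SE, from edgeR's quasi-likelihood test, and a gene was called where its p, adjusted by Benjamini-Hochberg over the 13624 genes tested, was under 0.05. Of these, 44.7% were called, 22.0% higher and 22.7% lower in lambs. ADIPOQ, an adipocyte hormone gene, lay between 9719 and 20351 CPM in all 6 libraries. Of the brown adipocyte markers, COX7A1 went from 162 to 263 CPM in fetuses to 2.45 to 3.11 in lambs and DIO2 from 18.4 to 27.0 to 0.0987 to 0.259. The ranges of CIDEA, 65.3 to 88.5 CPM in fetuses and 40.0 to 82.3 in lambs, overlapped.

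UCP1 (ENSOARG00000012510, chromosome 17, 16847682 to 16853677 on Oar v3.1) was lower in lambs, but remained an abundant transcript there. It was at 1630, 2162 and 1102 CPM in fetuses 1, 2 and 3 and at 387, 524 and 516 CPM in lambs 1, 2 and 3. The stages did not overlap, and the lowest fetal value was 2.10 times the highest lamb value. Among all genes tested, 29.5% separated the stages in this direction and 28.2% in the other. The mean fell from 1631 ± 530 to 476 ± 77.1 CPM, to 29.2% of the fetal level, with a log2 difference of -1.78 ± 0.27 (edgeR adjusted p = 0.00154). Larger decreases were found for 760 of the genes tested. The coefficient of variation was 32.5% in fetuses and 16.2% in lambs, but 19.5% and 17.0% by share of library totals. UCP1 held 0.135 ± 0.0263% of all counts in fetuses and 0.0563 ± 0.00956% in lambs. In bulk tissue, fewer brown adipocytes and less UCP1 RNA per cell cannot be told apart.

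UCP2 (ENSOARG00000008561, chromosome 15, 51596036 to 51598758) was lower in lambs by nearly as much. Its values were 197, 283 and 283 CPM in fetuses 1, 2 and 3 and 67.3, 70.6 and 114 CPM in lambs 1, 2 and 3. Again every lamb lay below every fetus, although lamb 3 stood above the other two. The mean fell from 254 ± 49.5 to 84.1 ± 26.3 CPM, to 33.1% of the fetal level (log2 difference -1.60 ± 0.25, edgeR adjusted p = 0.00180). Fetus 3, the lowest for UCP1, was level with fetus 2 for UCP2, and lamb 3, the highest for UCP2, was not the highest for UCP1.

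UCP3 (ENSOARG00000008669, chromosome 15, 51622789 to 51628720) was barely detected. It had 3, 2 and 2 counts in fetuses 1, 2 and 3 and 0 counts in each lamb. Those 7 counts among 55500064 give 0.126 CPM by library totals (exact Poisson 95% interval 0.0507 to 0.260). The 0 counts among 50403068 in lambs allow up to 0.0595 CPM, taking 3 counts over the stage as the limit. Setting the fetal value as counted against that limit gives at least 2.12-fold higher in fetuses (1.39 to 1.45 on leaving out 1 lamb), which does not allow for the counting error of the 7 fetal counts. The low end of the fetal interval, 0.0507 CPM, lies under the lamb limit, but such an overlap is not a test of the stage difference. The gene did not reach the count minimum of the test. Without that minimum, over 18260 genes, edgeR gave an adjusted p of 0.0407, while the authors' deposited table gives an FDR-corrected p of 0.0663. These values differ in gene set and software, and lie on either side of 0.05.

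**Figure D1:**
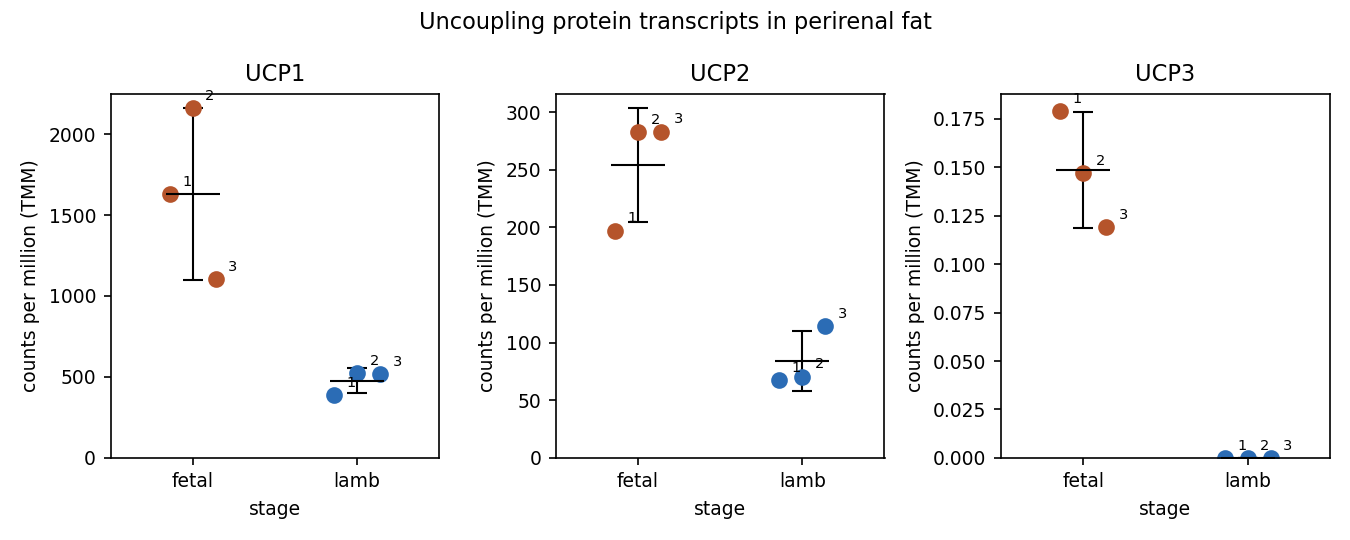
TMM-scaled CPM of UCP1, UCP2 and UCP3 (vertical axes, linear, each with its own range) in 3 fetal and 3 lamb libraries. Numbered points are libraries and black bars the mean ± SD; all lamb points lie below all fetal points for each gene, but UCP3 rests on 7 fetal counts in all.

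Levels of the 3 genes were compared per length, with the RPKM (reads scaled by gene length and library size) that the authors deposited. Their stage means were 1315 RPKM for UCP1, 178 for UCP2 and 0.210 for UCP3 in fetuses, and 706, 81.0 and 0.0422 in lambs. By these means UCP1 ranked 57 among all genes in fetuses and 144 in lambs, UCP2 476 and 1393, and UCP3 16127 and 17856. The order of the 3 genes was the same at both stages, with UCP1 at 7.39 times UCP2 in fetuses and 8.71 times in lambs. UCP1 was at 1407 RPKM in fetus 1 and at 648, 711 and 758 RPKM in lambs 1, 2 and 3; UCP2 was at 143 in fetus 1 and at 64.1, 69.1 and 110 in the lambs. In each of these 4 libraries UCP1 lay several-fold above UCP2.

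The stage difference of UCP1 was smaller by RPKM than by counts. The authors' mean RPKM differed by -0.90 on the log2 scale for UCP1 and by -1.14 for UCP2, against -1.26 and -1.12 for counts scaled by library totals. Scaling by totals moved the median of all genes from -0.01 to 0.46. Relative to fetus 1 and to the median of 6456 genes with at least 200 counts in every library, UCP1 had 1.47, 1.14 and 1.30 times as much RPKM per count in lambs 1, 2 and 3. Only 0.836%, 6.68% and 1.75% of those genes had more, whereas UCP2 was at 0.993, 0.982 and 1.01. UCP3 likewise has 0.0407 to 0.0447 RPKM in lambs, where its counts are 0. The sources used here do not say how the count and RPKM columns differ. By RPKM, UCP2 and not UCP1 had the larger decrease.

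Ratios within a library need no scaling between libraries. UCP1 had 8.27, 7.65 and 3.89 counts per UCP2 count in fetuses 1, 2 and 3, and 5.74, 7.43 and 4.51 in lambs 1, 2 and 3. The stages overlapped, and fetus 3 had the lowest ratio of all 6 animals. The mean log2 ratio was 2.65 ± 0.60 in fetuses and 2.53 ± 0.36 in lambs, a difference of -0.12 (two-sided exact permutation test, p = 0.8, also 0.8 adjusted over 3 ratios). This difference changed sign on leaving out fetus 1, fetus 2 or lamb 3, and lay between -0.46 and 0.08 on leaving out each of the 6 animals. No difference between the decreases of UCP1 and UCP2 was detectable with 3 animals per stage, where the smallest p possible is 0.1. Ratios to UCP3 are set by the value added to its 0 counts: the UCP1 ratio differed by 1.09 (exact permutation p = 0.1, adjusted 0.15) with 0.5 added and by -0.84 with 5 added.

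UCP1 was then set against genes of its own membrane and of its cell type. The first list was 47 nuclear genes for subunits of the respiratory chain and ATP synthase, of which 36 stood in the table at 1 locus and were tested. All 36 were lower in lambs (35 with scaling by library totals), and their median log2 difference was -2.11 against -0.01 over all genes. Among them UQCRC1, a core subunit of complex III, fell from 1322 ± 294 to 148 ± 27.4 CPM (log2 difference -3.16 ± 0.23), and ATP5G1, of the ATP synthase ring, fell by 3.72 ± 0.34. UCP1 stood above the mean log2 level of the list by 1.70, 1.71 and 1.12 in fetuses 1, 2 and 3 and by 1.59, 2.33 and 1.73 in lambs 1, 2 and 3. These ranges overlapped, with a difference of 0.37 (two-sided exact permutation test, p = 0.4, also 0.4 adjusted over 2 lists) that shrank to 0.18 without fetus 3 and 0.15 without lamb 2. These log2 CPM values were not set per length, so only their change between stages is read.

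Against a list of general adipocyte genes, UCP1 separated the stages. It stood above the mean of the 19 tested general adipocyte genes by 2.27, 2.49 and 1.21 in fetuses, and at -0.74, 0.23 and -0.73 relative to it in lambs. The difference was -2.40 (two-sided exact permutation test, p = 0.1, the smallest that 3 against 3 allows, and 0.2 adjusted over the 2 lists). On leaving out 1 animal it lay between -2.79 and -2.15. Of the 19 genes, 9 were higher in lambs, 2 lower and 8 did not pass, with a median of 0.56. The difference of -2.40 therefore takes in changes of the list as well as of UCP1. RBP4, a retinol carrier, rose from 26.7 ± 5.60 to 1044 ± 201 CPM (log2 difference 5.29 ± 0.25), and FABP4, which carries fatty acids within adipocytes, rose by 2.83 ± 0.27. SLC2A4, the insulin-responsive glucose transporter, fell by 2.02 ± 0.31. Without lamb 3, 5 members were called lower in place of 2.

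**Figure D2:**
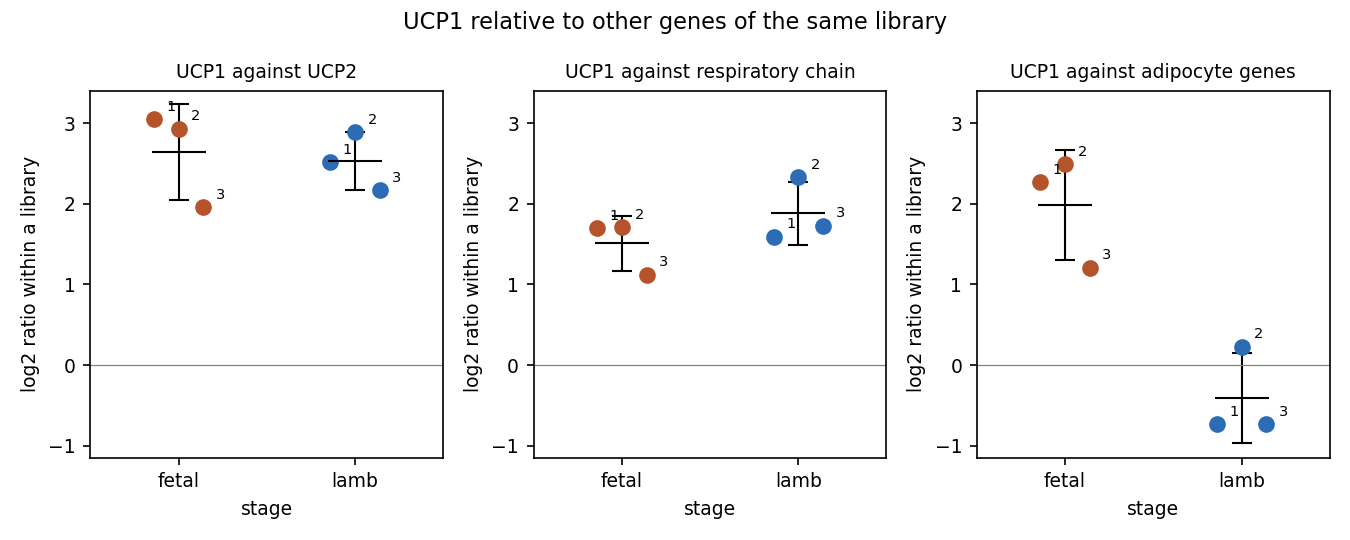
Log2 ratio within each library (vertical axis, shared scale) of UCP1 to UCP2 counts, and of UCP1 to the mean of 36 respiratory chain genes and of 19 general adipocyte genes. Numbered points are libraries and black bars mean ± SD; the stages overlap in the first and second panels and separate in the third, where all fetal values lie at 1.21 or above and all lamb values at 0.23 or below.

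The factors that drive UCP1 transcription did not move together. Of 26 listed activators, 24 were tested: 9 were lower in lambs, 5 higher and 10 did not pass, with a median log2 difference of -0.11. Over all genes tested, 22.7% were lower and 22.0% higher, the shares to set beside the counts of this and every other list. PPARGC1B, a coactivator of mitochondrial genes, fell from 79.6 ± 7.87 to 3.53 ± 0.877 CPM (log2 difference -4.49 ± 0.20, edgeR adjusted p = 2.29e-05). EBF2, a brown preadipocyte factor that opens the UCP1 locus, fell by 3.01 ± 0.18, and the orphan receptor ESRRB by 2.48 ± 0.19. In the other direction, IRF4, through which PPARGC1A acts on UCP1 and which immune cells also express, rose from 1.71 ± 0.849 to 675 ± 207 CPM (log2 difference 8.62 ± 0.46). Of 14 listed repressors, 13 were tested: 5 were higher, 2 lower and 6 did not pass (median 0.39). RB1, the retinoblastoma protein, rose by 2.52 ± 0.14, and NRIP1, a corepressor that silences UCP1 in white fat, rose from 19.6 ± 1.70 to 64.1 ± 40.5 CPM (log2 difference 1.71 ± 0.40, or 1.07 without lamb 1, which stood at 110 CPM). TCF21, a white preadipocyte factor, rose by 2.37 ± 0.68 with adjusted p = 0.0239, and its call was lost without fetus 1, 2 or 3, without lamb 1 or 2, with limma-voom or with the replicate number as a block. RBL1, a relative of RB1, fell by 2.01 ± 0.16. With scaling by library totals 10 activators were higher and 6 lower, and 8 repressors higher and 1 lower, so the counts of both lists move with the scaling. On leaving out fetus 1, fetus 2, lamb 2 or lamb 3, 3 activators were called higher in place of 5, and without any 1 animal but lamb 2, 1 repressor was called lower in place of 2.

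Signals that reach UCP1 from outside the cell arrive mainly through noradrenaline, cAMP and protein kinase A. Of 18 tested genes of adrenergic and cAMP signalling, 8 were lower, 4 higher and 6 did not pass (median -0.36). ADRB3, the brown fat receptor for noradrenaline, fell from 49.7 ± 5.70 to 18.0 ± 8.94 CPM (log2 difference -1.46 ± 0.31, edgeR adjusted p = 0.00698). Behind the receptor, the cyclase ADCY6 fell by 2.22 ± 0.34, PRKAR2B, the main regulatory subunit of protein kinase A in adipocytes, by 2.05 ± 0.19, and the catalytic subunit PRKACA from 159 ± 3.73 to 56.4 ± 13.6 CPM. Members called higher included the adrenergic receptor genes ADRA2A, by 2.88 ± 0.25, and ADRB1, by 0.70 ± 0.23 (edgeR adjusted p = 0.0394). The phosphodiesterase PDE4D was also called, at 1.85 ± 0.32. With library totals 7 of the list were higher and 4 lower. Without fetus 2 or lamb 2, or with the replicate block, 5 were called lower.

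Thyroid hormone raises UCP1 transcription, and in brown fat DIO2 makes the active hormone on site. Of 6 tested genes of thyroid hormone supply, 2 were lower, 2 higher and 2 did not pass, with a median of 0.69. DIO1 fell from 137 ± 78.2 to 0.642 ± 0.243 CPM (log2 difference -7.72 ± 0.64) and DIO2 from 23.6 ± 4.51 to 0.186 ± 0.0812 (-6.94 ± 0.31). The decreases of both deiodinases were larger than that of UCP1. In lambs, however, DIO2 lay at 0.0987 to 0.259 CPM, around the 0.174 to 0.189 CPM of a count of 3. The size of its decrease thus rests on few lamb reads. THRSP, a lipogenic target of the hormone rather than a supplier, rose by 5.15 ± 0.42. Of 15 tested genes that release fatty acids or take them into mitochondria, 7 were higher, 5 lower and 3 did not pass (median 0.20). LIPE, the hormone-sensitive lipase listed as HSL, rose by 1.94 ± 0.23, and ACSL1, which activates fatty acids, from 683 ± 98.5 to 2728 ± 573 CPM. CPT1B, 1 form of the gate of fatty acids into mitochondria, fell by 3.07 ± 0.29, from 29.7 ± 4.88 to 3.52 ± 1.35 CPM. CPT1A, another form, fell by 2.11 ± 0.17, from 1066 ± 60.9 to 247 ± 42.7 CPM.

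**Figure D3:**
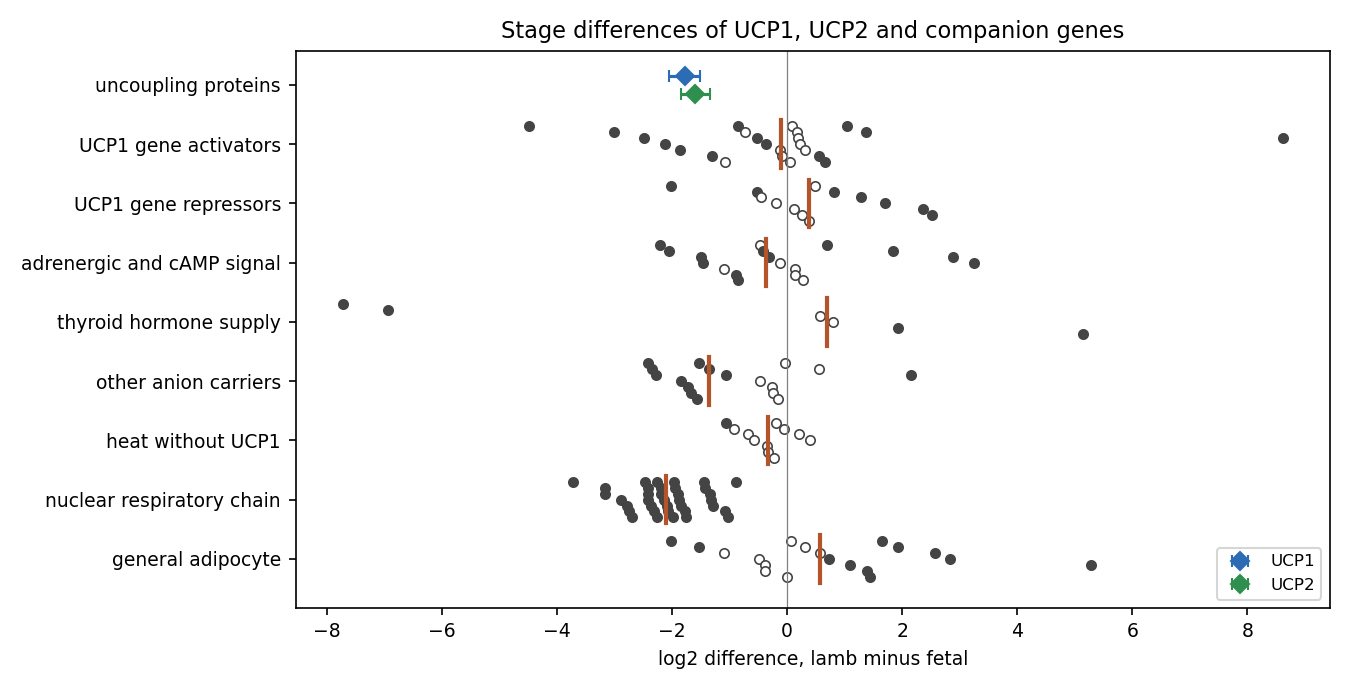
Log2 difference, lamb minus fetal (horizontal axis), of UCP1 and UCP2 (diamonds, ± SE) and of the tested members of 8 gene lists (circles, filled where called); vertical scatter within a row only separates points. Vertical strokes are list medians, at -2.11 for the respiratory chain, -1.35 for other anion carriers and 0.56 for general adipocyte genes.

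Other carriers of the inner membrane mostly fell with UCP1 and UCP2. Of 17 tested relatives, 10 were lower, 1 higher and 6 did not pass, with a median of -1.35. All 4 tested adenine nucleotide carriers were lower, at -1.56 for SLC25A4, -2.43 for SLC25A5, -1.67 for SLC25A6 and -1.53 for SLC25A31. These proteins exchange ADP for ATP and also leak protons, and since they are close relatives, how reads were shared among them is uncertain. SLC25A10, a dicarboxylate carrier, fell by 2.36 ± 0.24 and SLC25A12, an aspartate and glutamate carrier, by 2.27 ± 0.18. SLC25A25, an ATP-magnesium carrier, rose from 13.7 ± 2.51 to 61.1 ± 9.85 CPM (log2 difference 2.16 ± 0.18). The relatives once named UCP4 and UCP5 did not pass: SLC25A27 was at 1.54 CPM in fetuses and 1.29 in lambs, and SLC25A14 at 3.07 and 2.77. Like UCP3 they were thus rare transcripts here, but above the detection limit.

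Of genes of heat production without UCP1, by creatine or calcium cycling, those tested were nearly all outside the calls. Of 16 listed, 12 stood in the table at 1 locus and 11 were tested: 1 was lower, 0 higher and 10 did not pass (median -0.33). CKB, CKMT1A, CKMT1 and SLN were not found by symbol and PLN had too few counts to be tested, so nothing is known here of these genes. The called member was the creatine transporter SLC6A8, which fell from 16.6 ± 0.934 to 7.96 ± 1.46 CPM (log2 difference -1.06 ± 0.16). ATP2A2, the calcium pump of beige fat, was at 126 CPM in fetuses and 107 in lambs (log2 difference -0.23, edgeR adjusted p = 0.19, and 0.23 with library totals), and CKMT2, a mitochondrial creatine kinase, at 33.6 and 26.6 (adjusted p = 0.392), with the sign turned by library totals or without fetus 2. Without lamb 2, 2 members were called lower, and without fetus 1, 1 was called higher.

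UCP2 and UCP3 are often studied for their part in limiting superoxide, so genes that clear it were listed too. Of 16 tested, 7 were lower, 4 higher and 5 did not pass (median -0.05). Over all genes tested the shares were 22.7% lower and 22.0% higher. NNT, the transhydrogenase that supplies mitochondrial NADPH, fell from 1003 ± 205 to 88.1 ± 9.54 CPM (log2 difference -3.51 ± 0.20), mitochondrial thioredoxin TXN2 fell by 2.61 ± 0.20 and the peroxiredoxin PRDX5 by 1.54 ± 0.17. The extracellular superoxide dismutase SOD3 rose by 2.86 ± 0.27. With library totals 7 were higher and 5 lower.

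Markers of other cell types moved with stage as well, and their part in the uncoupling protein results was not tested. Macrophages are rich in UCP2, and 11 of 15 tested macrophage markers were higher in lambs with 0 lower (median 1.20), whereas UCP2 was lower. The other 4 did not pass. The summed level of the list was 294 to 570 CPM in fetuses and 1512 to 1950 in lambs. Much of the lamb sum was MRC1, the mannose receptor, which rose from 57.6 ± 14.1 to 992 ± 163 CPM (log2 difference 4.11 ± 0.25). Among 13 tested lymphocyte markers 3 were higher and 0 lower (median 0.67), with sums of 19.6 to 29.0 and 16.9 to 72.6 CPM. Without lamb 3 as many as 9 lymphocyte markers were called higher, and without fetus 2, lamb 1 or lamb 2 only 1.

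Skeletal muscle is the main site of UCP3, and muscle markers were few. Of 16 in the table at 1 locus, 9 were tested: 4 were lower in lambs (1 with the minimum of 5 CPM in 3 libraries), 0 higher and 5 did not pass (median -2.47). Their summed level overlapped between stages, at 91.1 to 279 CPM in fetuses and 55.7 to 359 in lambs. The highest sum lay with lamb 2, where DES, which smooth muscle also expresses, reached 330 CPM. MYOD1 and PAX7 had 0 counts in all libraries and MYOG 1. Some contractile genes stood out in fetus 1. In fetuses 1, 2 and 3, ACTA1 was at 32.4, 1.69 and 0.477 CPM and TTN at 8.18, 0.514 and 0.358, and neither was called. MB was highest in fetus 2. The oxygen carrier MB fell from 5.32 ± 2.51 to 0.0835 ± 0.0274 CPM and creatine kinase CKM from 43.2 ± 26.2 to 7.37 ± 1.59. The part of muscle in the UCP3 counts was not tested.

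The other marker lists are given as counts. All 10 tested urothelial genes were lower in lambs, with sums of 64.2 to 221 CPM against 2.80 to 7.57. Of 5 tested red cell genes 4 were lower, with sums of 374 to 1297 CPM against 49.9 to 79.3. Both lists gave fewer calls with that stricter minimum, at 4 and 2. The counts of the remaining lists moved with single libraries and with the scaling. Of 8 endothelial genes 2 were lower (1 to 2 over all settings) and 1 higher (0 to 5), with sums of 1654 to 2045 against 1704 to 1834 CPM. Of 9 mural cell genes 1 was lower (0 to 2) and 2 higher (1 to 4), with sums of 939 to 1230 against 1967 to 3290 CPM. Within these sums MCAM alone was at 368 ± 21.0 CPM in fetuses and 1513 ± 125 in lambs. Of 12 stromal genes 1 was lower (1 to 4) and 2 higher (1 to 6), with sums of 7498 to 15354 against 8197 to 9460 CPM. Summed kidney and adrenal markers were at 26.9 to 39.5 against 43.7 to 51.5 CPM.

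UCP2 and UCP3 lie 24031 bases apart on chromosome 15 with no other listed gene between them. On the far side of UCP2 stands DNAJB13, a testis and cilia cochaperone, 3611 bases away, with 0, 2 and 2 counts in fetuses 1, 2 and 3 and 0, 1 and 0 in lambs 1, 2 and 3. Further out PAAF1, a proteasome assembly factor, was at 78.2 ± 8.49 CPM in fetuses and 74.7 ± 4.17 in lambs (log2 difference -0.07 ± 0.12, edgeR adjusted p = 0.684). C2CD3, a centriole protein gene 8175 bases from UCP3, was at 28.8 ± 1.22 and 35.0 ± 2.51 CPM (log2 difference 0.28 ± 0.11, edgeR adjusted p = 0.0647). With scaling by library totals both were called higher in lambs, PAAF1 at 0.42 (adjusted p = 0.0468) and C2CD3 at 0.75 (adjusted p = 0.00618), and C2CD3 also passed without lamb 1 (0.34, adjusted p = 0.0475).

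UCP1 lies within the span listed for ELMOD2, chromosome 17 from 16744037 to 16884192, which takes in all 5996 bases of UCP1. ELMOD2, a GTPase regulator, had 91 to 194 counts per library, 0.408 to 1.84% of those of UCP1. It did not pass the test (log2 difference -0.62 ± 0.23, edgeR adjusted p = 0.062), but passed as lower without lamb 3, with upper-quartile scaling, with the stricter minimum or with the replicate block (-0.80 to -0.65, adjusted p from 0.0368 to 0.043). TBC1D9, 23864 bases away, rose from 6.42 ± 0.726 to 10.3 ± 1.58 CPM (log2 difference 0.68 ± 0.18, edgeR adjusted p = 0.0174), a call lost without fetus 2. CLGN, on the other side, was at 12.0 ± 2.48 and 6.44 ± 5.86 CPM and did not pass, although without lamb 2 it was lower by -1.95 (edgeR adjusted p = 0.00558). ENSOARG00000012558, which lies between UCP1 and CLGN, had 0 counts in all libraries, as did ENSOARG00000022903, a locus inside the C2CD3 span. The tables give no strand or exon structure, and the sources used here do not say whether counting used strand, so reads of overlapping genes cannot be told apart.

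The genes whose profile over the 6 libraries was most like that of each uncoupling protein were ranked among 9026 genes with a symbol and at least 5 CPM. Likeness was the root mean square difference of log2 CPM after centring each gene on its mean, so small values mean a similar course. For UCP1 the nearest were TMEM126A (0.176), a complex I assembly factor, CTSA (0.189), a lysosomal protease, the mitochondrial chaperone TRAP1 (0.19), the zinc finger gene ZNF672 (0.2) and SLC22A5 (0.201), the carnitine transporter. CTSA was at 136, 179 and 115 CPM in fetuses 1, 2 and 3 and at 41.5, 39.7 and 51.1 in lambs. Within the fetal stage it was, like UCP1, highest in fetus 2 and lowest in fetus 3. Among lambs, however, lamb 2 was the lowest for CTSA and the highest for UCP1. For UCP2 the nearest included ABCB8 (0.127), a mitochondrial ABC transporter, DLST (0.147), of the oxoglutarate dehydrogenase complex, CLSTN3 (0.149) and DPH7 (0.156). DLST was at 394, 488 and 415 CPM in fetuses and at 119, 138 and 197 in lambs, with lamb 3 highest of its stage as for UCP2. UCP1 and UCP2 were at 0.407 from each other, which placed UCP2 at rank 347 for UCP1 and UCP1 at rank 533 for UCP2. All of these genes fell between the stages and were described, not tested, for likeness. The nearest genes were chosen on these same libraries, so a shared fall or order of libraries is no added result. UCP3 has too few counts for a profile.

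UCP1 and UCP2 kept their direction and their call in all 17 edgeR, DESeq2 and limma fits. Over these UCP1 lay between -1.997 and -1.26 (adjusted p from 9.26e-11 to 0.0084) and UCP2 between -1.88 and -1.12 (4.01e-09 to 0.00869). The smallest differences came from scaling by library totals and the largest from leaving out fetus 3 for UCP1 and lamb 3 for UCP2. UCP1 had the larger decrease in all of these fits but that without lamb 3, and UCP2 had it by the authors' RPKM.

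**Figure D4:**
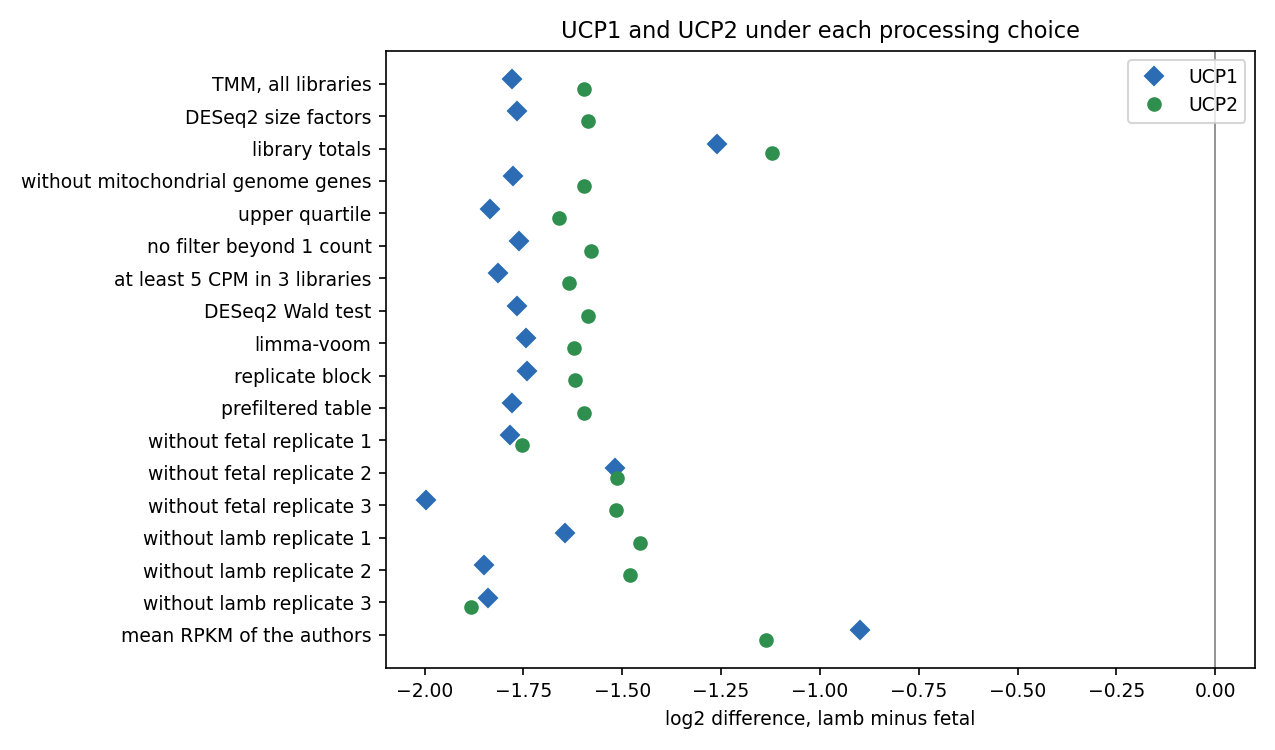
Log2 difference, lamb minus fetal (horizontal axis), of UCP1 (diamonds) and UCP2 (circles) under each scaling, filter, test or left-out library, with the authors' mean RPKM in the last row. All values lie below 0, and library totals (-1.26 and -1.12) and RPKM (-0.90 and -1.14) lie nearest to it.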

How the data were processed

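Per the labels' protocols, frozen perirenal fat gave total RNA for single-end libraries of 3 fetuses and 3 lambs. Per the series' design text, the authors mapped reads to Ensembl models of Oar v3.1 (release 74) in CLC Genomics Workbench 7.0. The authors deposited raw read counts per gene. The authors also deposited RPKM, per library and as stage means, which were used for description only. The authors' signed fold score and FDR-corrected p-value were deposited from an edgeR test in that software. Of per-sample columns, 8 RPKM columns were not used, because a header repeats or the values stand in the prefiltered table of 17010 genes. The fits used edgeR 4.0.16 under R 4.3.3 (filterByExpr, TMM, quasi-likelihood F test, no covariates). Alternatives used DESeq2 1.42.0 and limma 3.58.1, exact tests scipy 1.17.1. The SE is the log2 difference divided by the root of F. CPM of a count of 3 was 0.157 to 0.189 per library. On simulated counts for 13492 genes, 99 of 100 genes changed 4-fold and 68 of 100 changed 2-fold were recovered, with 12 false calls.

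The members and lists were chosen with earlier results of these data known. Symbols are those of the table, with PPARG, LIPE, PCK1 and JCHAIN matched to older names. Genes named were the 3 members, up to 3 called list members with the largest change in the commoner direction plus up to 1 of the opposite sign, all reaching 1 CPM, the nearest 2 genes on either side, and the 5 most alike; 2 genes that this rule names are not reported here. Marker lists of other cell types are mostly given as totals, and ADRB3, ATP2A2, CKMT2 and the adenine nucleotide, UCP4 and UCP5 carriers were added for their role after values were seen. ADRA2A, ADRB1, PDE4D, ACTA1 and TTN were also added after values were seen, to show members or libraries that differ from the rest. CPT1A was added beside CPT1B, likewise after values were seen. Libraries of a stage differed far beyond sampling noise (chi-square per degree of freedom 45.9 to 89.9), so each counted as a sample. The labels do not say that replicate numbers pair the libraries, so the fit left them unpaired.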

Additional observations from a re-analysis of the deposited data

How the results depend on the processing

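The number of genes called lay between 4798 and 7067 over the alternatives, against 6095. Scaling by library totals called 79.35% of them higher in lambs, against 49.25% with TMM, and PAAF1 turned to 0.42 (called, adjusted p = 0.0468), ATP2A2 to 0.23, CKMT2 to 0.18, SLC25A14 to 0.32 and SLC25A27 to 0.21. On leaving out 1 library CKMT2 lay between -0.56 and 0.0367, turning without fetus 2. With the authors' mean RPKM, added after seeing the data, UCP1 was at -0.90 and UCP2 at -1.14; the cause was not tested. The stage difference of the log2 UCP1 to UCP2 ratio lay between -0.46 and 0.08 on leaving out 1 library. It turned to 0.0809 without fetus 1, 0.0242 without fetus 2 and 0.0592 without lamb 3. With 5 in place of 0.5 added to each count, the stage difference of the UCP1 to UCP3 ratio turned from 1.09 to -0.84. That of the UCP2 to UCP3 ratio turned from 1.21 to -0.72, because UCP3 counts are 0 to 3. The UCP3 ratio of the fetal value to the lamb limit, added after seeing the data, was 2.95 with TMM-adjusted sizes and 1.39 to 2.29 on leaving out 1 library, without allowing for fetal counting error. No fit with a count minimum tested UCP3. Replicate numbers are shared by the stages but the labels give no pairing, and same-numbered libraries had correlations of deviations of 0.00327, -0.116 and 0.046. In the fit with this replicate block UCP1 was at -1.74 (adjusted p = 0.00501), UCP2 at -1.62 (adjusted p = 0.00208) and 5353 genes were called.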
